A study of Mus musculus with 12 samples.

Results

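Kdr, Flt1, Tek, Tie1, Pecam1, Cdh5, Emcn, Eng, Vwf and Thbd are genes whose RNA is used to recognise endothelial cells, and they were followed here through 12 RNA-seq libraries of mouse skeletal muscle and testis. They were taken by symbol from the deposited table of normalised counts, where all 10 were found among 47730 features, each with reads in every library. The tissues came from male C57BL/6J mice aged 5 to 6 months, fed freely, which were either wild type (Bckdk+/+) or homozygous for a mutant Bckdk allele (BckdkM/M, "KO" in the sample titles) that had been backcrossed for at least 10 generations. Bckdk encodes the kinase that inhibits the breakdown of branched-chain amino acids. The 4 groups were wild-type muscle, mutant muscle, wild-type testis and testis labelled mutant, with 3 libraries each. Muscle was the gastrocnemius and plantaris combined, and the mutation is carried in the whole animal, so no group isolates an effect within endothelial cells. Letters stand for the mouse numbers in the column names. Mice A, B and C gave wild-type muscle and testis, mice D, F and G gave mutant muscle, and mice D, E and F gave testis labelled mutant.

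Endothelial cells form the inner lining of all blood vessels and hold it together with adhesion proteins at their junctions. Their growth and survival are steered by vascular endothelial growth factor (VEGF) acting on Kdr and Flt1, and their quiescence by angiopoietins acting on Tek, with Tie1 as its partner receptor. In skeletal muscle, capillaries run along the fibres, while in testis the vessels lie in the spaces between the seminiferous tubules and do not enter them. RNA of a whole tissue piece was measured, so fewer endothelial cells and less RNA per endothelial cell cannot be told apart in any value below.

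The stretches just upstream of Kdr, Flt1 and Tek are shown because these receptor genes are compared across tissues below. They come from the RefSeq promoter table (GRCm38.p6), which held Kdr, Flt1, Tek, Tie1, Emcn and Eng, 6 of the 10 genes. Pecam1, Cdh5, Vwf and Thbd are named only. Each run is read 5′ to 3′ along the gene's own strand and ends at the base before the annotated gene, at chr5:75978459-75978705 on the minus strand for Kdr, chr5:147726012-147726261 on the minus strand for Flt1 and chr4:94739039-94739288 on the plus strand for Tek. Capitals mark a match to CNGGAAG, letters found in binding sites of ETS factors, a family that endothelial genes commonly use.
Kdr upstream: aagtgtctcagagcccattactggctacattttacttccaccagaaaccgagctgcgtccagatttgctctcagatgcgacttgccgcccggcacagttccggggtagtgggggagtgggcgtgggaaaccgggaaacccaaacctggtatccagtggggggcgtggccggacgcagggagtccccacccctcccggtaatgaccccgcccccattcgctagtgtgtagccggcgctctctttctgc
Flt1 upstream: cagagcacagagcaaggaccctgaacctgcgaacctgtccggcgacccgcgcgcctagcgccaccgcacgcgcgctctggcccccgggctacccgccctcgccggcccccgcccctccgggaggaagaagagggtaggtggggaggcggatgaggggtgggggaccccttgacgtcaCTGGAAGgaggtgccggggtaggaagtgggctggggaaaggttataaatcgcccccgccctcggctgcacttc
Tek upstream: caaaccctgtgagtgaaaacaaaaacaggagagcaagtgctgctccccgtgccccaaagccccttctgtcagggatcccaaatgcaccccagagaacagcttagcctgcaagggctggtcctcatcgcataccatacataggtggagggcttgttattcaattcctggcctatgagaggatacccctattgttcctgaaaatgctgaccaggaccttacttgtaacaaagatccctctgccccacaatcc
In the 250 bases before the RefSeq start, searched on both strands, CNGGAAG was present in Flt1, Tie1 and Emcn, 3 of the 6 genes, and in 26.6% of all 32817 promoters of that length. In Flt1 it began 73 bases before the start. TATAAA was found in Flt1, 31 bases before the start, and in 12.4% of all promoters, and ACAAAG, letters found in SOX sites, in Tek and Eng and in 16.5% of all promoters. The letters AGATAA, used by factors of the GATA family and present in 9.99% of all promoters, were not in these 6 windows, nor were GTAAACA, used by FOX factors and present in 3.16%. The Flt1 window was 70.4% G and C, the Kdr window 61.6%, the Tek window 51.2% and the Emcn window 40.8%, against a median of 52.4% over all promoters.

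Reads recovered from the table ranged from 12852427 to 15795722 per library. Bckdk itself stood at 2214 to 2627 normalised counts in wild-type muscle and 12.4 to 14.8 in mutant muscle. In testis it was 68.0 to 73.3 in wild type and 114 to 138 in the libraries labelled mutant, so the targeted gene was not lower there, and "labelled mutant" is written for those libraries throughout. A feature named NeoR in the table went the way of the labels in both tissues, with 208 to 266 against 2.28 to 3.85 in muscle and 13.1 to 19.9 against 1.77 to 3.34 in testis. The 9 markers of pancreatic islet cells were all detected in every group and summed to 29768 and 31656 in mutant muscle G and F and 13144 to 15434 in the other muscle libraries, and to 18509 and 18720 in wild-type testis B and A and 10194 to 13240 in the other testis libraries. Skeletal muscle fibre genes were found in testis at a median of 0.264% of their wild-type muscle level in library A, 0.00731% in B, and 0.545% to 0.637% in C, D, E and F. A further list of 15 pan-endothelial genes, such as Cd34 and Nos3, was detected in full in every group and summed to 10519 to 10633 in wild-type muscle, 10512 to 11786 in mutant muscle, 979 to 1181 in wild-type testis and 842 to 1067 in testis labelled mutant.

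All 10 genes were several times higher in wild-type muscle than in wild-type testis. None passed the test between genotypes in either tissue. In testis, Thbd had the smallest unadjusted p, with all 3 libraries labelled mutant below all 3 wild-type libraries. Kdr had the same arrangement, which 3.67% of all genes tested in testis also had. Emcn, on few reads, is not counted here, since only its wild-type libraries carried it past the filter on low counts. Groups were compared with limma on log2(normalised count + 1), which understates the change of genes with few counts, and p was adjusted by Benjamini-Hochberg over all genes tested. The threshold was an adjusted p of 0.05.

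By these rules, 10 of 10 passed as higher in wild-type muscle than in wild-type testis, a direction in which 37.3% of the 19994 genes tested passed. Their muscle libraries all lay above their testis libraries, as they did for 38.1% of those genes. Between genotypes in muscle, 0 of 10 passed, where 0.0369% of 16246 genes did, 0 of 10 had an unadjusted p under 0.05 against 9.52% of all genes, and edgeR and DESeq2 also called 0. In testis, 0 of 10 passed, where 0.0205% of 19543 genes did, 2 of 10 (Kdr and Thbd) had an unadjusted p under 0.05 against 7.09% of all genes, and edgeR and DESeq2 again called 0. With 3 libraries against 3, an exact two-sided permutation test of one gene cannot go below 0.1.

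**Figure D1:**
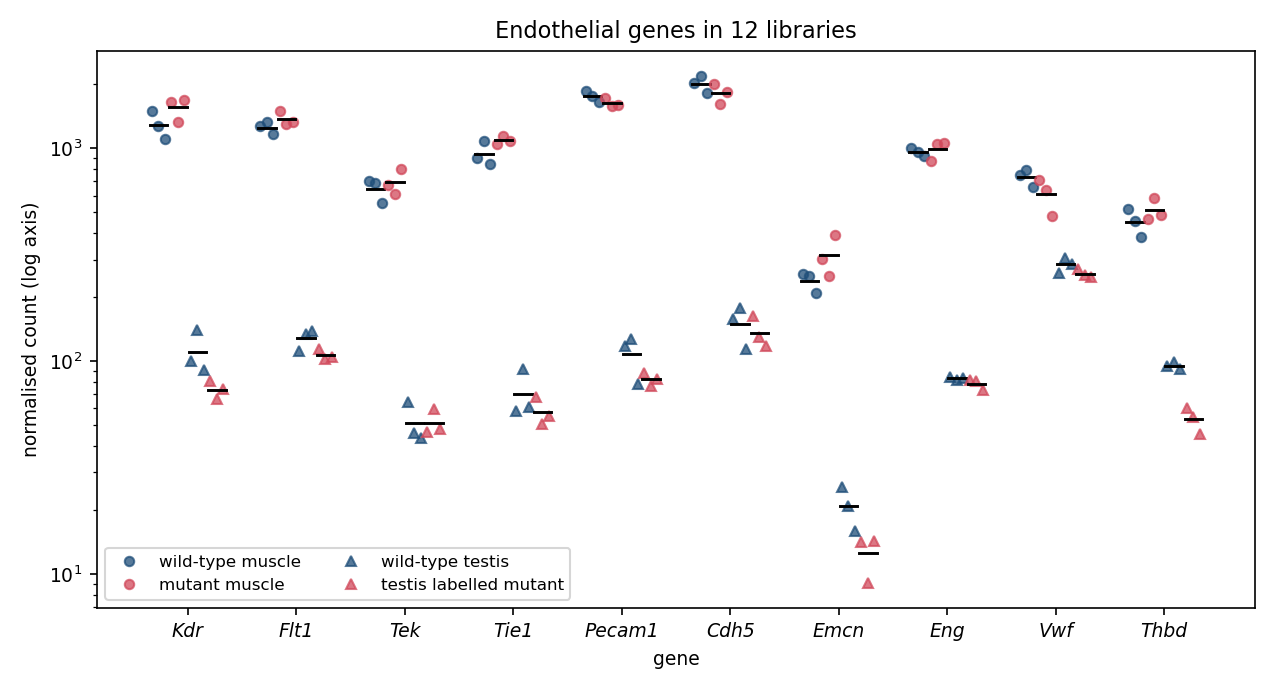
Normalised counts (log axis) of the 10 endothelial genes, with 1 point per library and 3 libraries in each of the 4 groups. Muscle points lie above testis points for every gene, and the gap is smallest for Vwf, from 481 to 794 in muscle and 250 to 307 in testis.

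The VEGF receptors come first. Kdr (ENSMUSG00000062960, chromosome 5, 75932827 to 75978458, minus strand, GRCm38) encodes VEGF receptor 2, the main signalling receptor for VEGF-A. In wild-type muscle its normalised count was 1499 in A, 1278 in B and 1102 in C, and in mutant muscle it was 1650 in D, 1334 in F and 1686 in G. Wild-type testis had 100.6 in A, 140.8 in B and 91.0 in C, and testis labelled mutant had 80.7 in D, 66.3 in E and 73.7 in F. Values of the other genes follow in the same order of mice. The muscle groups overlapped, whereas in testis the lowest wild-type library, C, lay above the highest library labelled mutant, D. The log2 difference between genotypes was 0.27 (SE 0.15, adjusted p = 0.562) in muscle and -0.56 (SE 0.18, unadjusted p = 0.00959, adjusted p = 0.696) in testis. Without the 2 wild-type testis libraries that held more islet RNA, A and B, which leaves C alone as wild type, the testis difference was -0.31. Between the wild-type tissues Kdr differed by 3.55 (SE 0.18, adjusted p = 3.02e-07), a ratio of group means of 11.7.

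Flt1 (ENSMUSG00000029648, chromosome 5, 147561604 to 147726011, minus strand) encodes VEGF receptor 1, which binds VEGF tightly, signals weakly and is also made as a soluble form that traps the ligand. Counts per gene do not separate the forms. It measured 1271, 1323 and 1162 in wild-type muscle and 1496, 1297 and 1337 in mutant muscle. In testis it measured 112.1, 134.1 and 138.6 in wild type and 113.9, 102.7 and 104.8 in the libraries labelled mutant. Both pairs of groups overlapped, in testis through wild-type A, which lay just under labelled mutant D. Genotype differences were 0.14 (SE 0.13, adjusted p = 0.701) in muscle and -0.25 (SE 0.14, adjusted p = 0.747) in testis, and the tissue difference was 3.28 (SE 0.11, adjusted p = 2.86e-08). Per kilobase of exon, the ratio of Flt1 to Kdr was 0.655 ± 0.076 (SD, n = 3) in wild-type muscle, 0.595 ± 0.061 in mutant muscle, 0.800 ± 0.197 in wild-type testis and 0.977 ± 0.051 in testis labelled mutant. The wild-type ranges of the 2 tissues overlapped, from 0.567 to 0.705 in muscle and 0.637 to 1.02 in testis.

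Tek (ENSMUSG00000006386, chromosome 4, 94739289 to 94874976, plus strand) encodes Tie2, the receptor of the angiopoietins. It had 705, 685 and 551 normalised counts in wild-type muscle and 674, 608 and 796 in mutant muscle. The testis libraries had 64.4, 45.8 and 43.4 in wild type and 46.4, 59.7 and 48.0 in those labelled mutant. The genotype groups overlapped in both tissues, and Tek had the smallest genotype difference of the 10 genes in testis, 0.02 (SE 0.22, adjusted p = 0.993), with 0.10 (SE 0.15, adjusted p = 0.831) in muscle. The sign of the testis difference turned with other scalings. Its tissue difference was 3.65 (SE 0.18, adjusted p = 2.82e-07).

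Tie1 (ENSMUSG00000033191, chromosome 4, 118471191 to 118490061, minus strand) encodes the receptor that pairs with Tie2 and has no well established ligand of its own. It stood at 903, 1081 and 846 in wild-type muscle and at 1050, 1139 and 1084 in mutant muscle. In testis the values were 58.2, 91.6 and 61.0 in wild type and 67.6, 50.5 and 55.1 in the libraries labelled mutant. Mutant muscle was the tighter group, with its lowest library below only wild-type B, and the testis groups overlapped. Differences between genotypes were 0.22 (SE 0.14, adjusted p = 0.586) in muscle and -0.26 (SE 0.21, adjusted p = 0.832) in testis, and between wild-type tissues 3.75 (SE 0.19, adjusted p = 2.77e-07).

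The junction genes led the others in wild-type muscle in level per exon length. Pecam1 (ENSMUSG00000020717, chromosome 11, 106654217 to 106750628, minus strand) encodes CD31, an adhesion molecule of endothelial contacts that platelets and leukocytes also carry. It measured 1857, 1757 and 1645 in wild-type muscle and 1720, 1587 and 1603 in mutant muscle. Testis held 118.3, 126.6 and 78.5 in wild type and 87.7, 76.2 and 82.6 in the libraries labelled mutant. Wild-type testis C lay among the libraries labelled mutant, while A and B lay above them. The genotype difference was -0.10 (SE 0.12, adjusted p = 0.779) in muscle and -0.36 (SE 0.19, adjusted p = 0.74) in testis, and without wild-type testis A and B the latter was 0.06. Pecam1 had the largest tissue difference of the 10 genes, 4.04 (SE 0.17, adjusted p = 1.13e-07), a ratio of group means of 16.3.

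Cdh5 (ENSMUSG00000031871, chromosome 8, 104101625 to 104144511, plus strand) encodes VE-cadherin, the cadherin of endothelial adherens junctions. Its normalised counts were 2032, 2186 and 1814 in wild-type muscle and 2000, 1620 and 1842 in mutant muscle. They were 158.0, 178.2 and 114.4 in wild-type testis and 162.3, 129.2 and 117.2 in testis labelled mutant. The groups overlapped in both tissues, and in testis the lowest library of all was wild type. Genotype differences were -0.14 (SE 0.14, adjusted p = 0.705) in muscle and -0.13 (SE 0.18, adjusted p = 0.901) in testis, the latter 0.24 without wild-type testis A and B. The tissue difference was 3.75 (SE 0.16, adjusted p = 1.18e-07). An antisense gene annotated over part of Cdh5 shares 0 exon bases with it.

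Emcn (ENSMUSG00000054690, chromosome 3, 137341067 to 137432185, plus strand) encodes endomucin, a sialomucin on the surface of capillary and venous endothelium. It rested on the fewest reads of the 10 genes. Its normalised counts were 256.1, 252.1 and 208 in wild-type muscle and 302.2, 250.6 and 391.6 in mutant muscle. In testis it had 25.6, 20.8 and 15.9 in wild type and 14.1, 9.11 and 14.2 in the libraries labelled mutant. These testis values rest on 19 to 29 reads in wild type and 11 to 16 in the others, and the wild-type libraries are what carried Emcn past the filter of 10 normalised counts in 3 libraries. In muscle the groups overlapped, with mutant G the highest and wild-type C the lowest, and in testis they did not. The genotype difference was 0.38 (SE 0.19, adjusted p = 0.535) in muscle, the largest of the 10 there, and -0.69 (SE 0.35, adjusted p = 0.722) in testis. Without mutant G the muscle difference was 0.21, and without wild-type testis A and B the testis difference was -0.35. The tissue difference was 3.48 (SE 0.23, adjusted p = 1.56e-06).

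Eng (ENSMUSG00000026814, chromosome 2, 32646595 to 32682669, plus strand) encodes endoglin, a co-receptor for BMP9 and other TGF-beta family ligands. It measured 1007, 957 and 923 in wild-type muscle and 874, 1044 and 1055 in mutant muscle. Testis values were 83.8, 81.6 and 83.5 in wild type and 81.7, 80.4 and 72.8 in the libraries labelled mutant. Wild-type testis was the tightest group of any gene here, with a coefficient of variation of 1.44%. Genotype differences were 0.04 (SE 0.13, adjusted p = 0.929) in muscle, the smallest of the 10 there, and -0.08 (SE 0.15, adjusted p = 0.928) in testis. The tissue difference of 3.52 (SE 0.09, adjusted p = 8.03e-09) had the smallest p of the 10. Eng shares 61 exon bases with Fpgs on the opposite strand, and how the authors' counting treated strand is not given in the sources used here.

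The haemostasis genes differed least between tissues. Vwf (ENSMUSG00000001930, chromosome 6, 125546774 to 125686679, plus strand) encodes von Willebrand factor, which tethers platelets, carries factor VIII and is also made by megakaryocytes. It had 750.1, 794 and 656 normalised counts in wild-type muscle and 710.5, 639 and 481 in mutant muscle. In testis it had 260.3, 306.5 and 287 in wild type and 270.2, 254 and 249.5 in the libraries labelled mutant. Mutant muscle G was the lowest muscle library, D lay within the wild-type range, and the testis groups overlapped through wild-type A. The genotype difference was -0.28 (SE 0.17, adjusted p = 0.57) in muscle, and -0.12 without mutant G, and it was -0.14 (SE 0.10, adjusted p = 0.79) in testis. Muscle exceeded testis by 1.36 (SE 0.11, adjusted p = 3.93e-06), a ratio of group means of 2.58.

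Platelet and megakaryocyte markers, 6 genes, summed to 182 to 220 in wild-type muscle, 178 to 266 in mutant muscle, 64.1 to 96.9 in wild-type testis and 81.7 to 97.8 in testis labelled mutant. Of them Gp9 was at 0 in wild-type muscle and Treml1 in testis. The sums mix genes that went opposite ways between the wild-type tissues, with Pf4 at 3.37 (higher in muscle) and Gp1bb at -3.34. Of the 3 tested, 1 passed as higher in muscle and 1 as lower, so the sums do not rank the tissues. The part of these markers in the Vwf values was not tested.

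Thbd (ENSMUSG00000074743, chromosome 2, 148404466 to 148408188, minus strand) encodes thrombomodulin, which turns thrombin from a clotting enzyme into an activator of protein C. Its normalised counts were 517, 454 and 384 in wild-type muscle and 465, 585 and 488 in mutant muscle. In testis they were 94.4, 99.1 and 91.9 in wild type and 60.5, 54.7 and 45.3 in the libraries labelled mutant. The muscle groups overlapped. In testis the wild-type libraries lay close together and well above the others, at 95.1 ± 3.68 (SD, n = 3) against 53.5 ± 7.67 (SD, n = 3). The genotype difference in testis was -0.83 (SE 0.17, 95% interval -1.20 to -0.46, unadjusted p = 0.000397), which did not pass after adjustment over 19543 genes (adjusted p = 0.431). It was -0.78 without wild-type testis A and B and between -0.92 and -0.72 when any single library was left out, and its adjusted p ran from 0.112, by DESeq2, to 0.998 over 18 alternatives. In muscle the difference was 0.19 (SE 0.16, adjusted p = 0.669), and between wild-type tissues it was 2.23 (SE 0.14, adjusted p = 8.97e-07), a ratio of group means of 4.75.

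The order of the genes was compared on the scale of normalised count per kilobase of annotated exon. In wild-type muscle Cdh5 led at 478 ± 44.4 (SD, n = 3), followed by Pecam1 at 281, Eng at 238, Tie1 at 192, Kdr at 143, Tek at 137, Thbd at 121, Flt1 at 92.7, Vwf at 45.7 and Emcn at 44.1. Neighbours in this order had separate library ranges except Kdr and Tek, Tek and Thbd, and Vwf and Emcn. In wild-type testis Cdh5 again led at 35.7 ± 7.76 (SD, n = 3), but Thbd was second at 25.6, then Eng at 20.5 and Vwf at 17.7. From Vwf down through Pecam1 (17.3), Tie1 (14.3), Kdr (12.3), Tek (10.9) and Flt1 (9.50) each library range overlapped the next, and Emcn was last and separate at 3.84. Of the summed level per kilobase of the 10 genes, Vwf made up 2.57% in wild-type muscle and 10.6% in wild-type testis, and Thbd 6.84% and 15.2%. In testis labelled mutant, Thbd came after Cdh5, Eng and Vwf at 14.4, 10.5% of the sum, and its range overlapped those of Vwf and Pecam1. The ratio of Vwf to Thbd per kilobase was 0.379 ± 0.037 in wild-type muscle, 0.279 ± 0.067 in mutant muscle, 0.694 ± 0.047 in wild-type testis and 1.13 ± 0.129 in testis labelled mutant (each SD, n = 3). Its testis groups did not overlap, with 0.639 to 0.725 in wild type and 1.03 to 1.28 in the libraries labelled mutant. The Thbd counts alone already separated these libraries, so this is not a separate result.

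**Figure D2:**
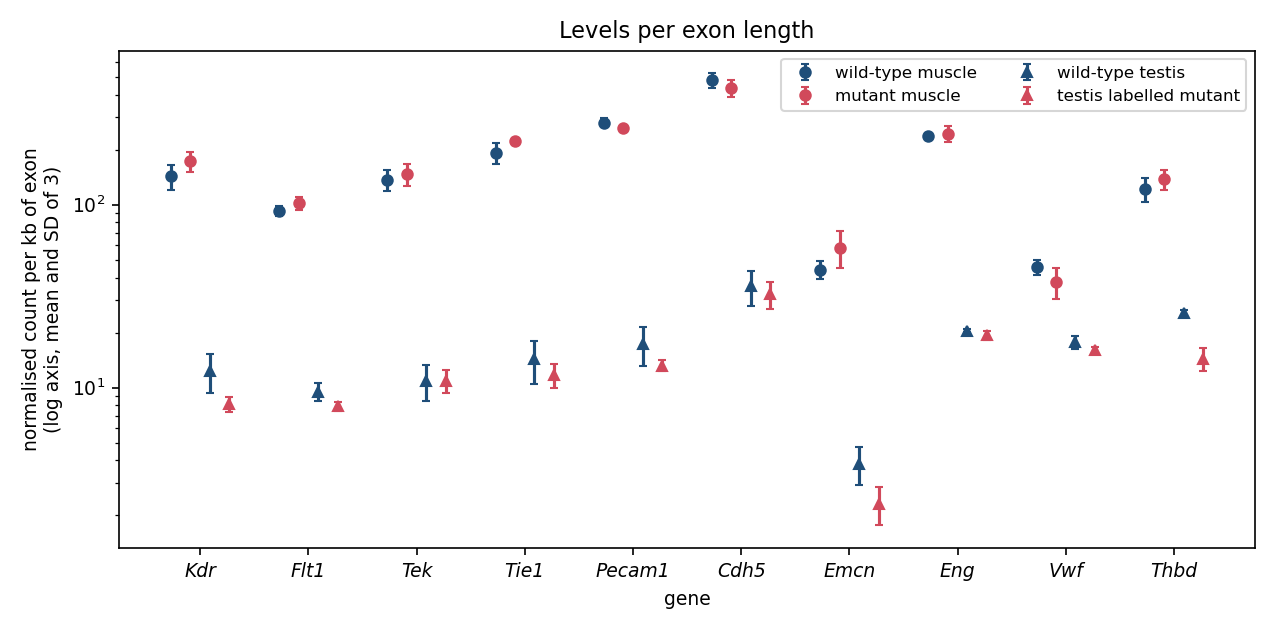
Normalised counts per kilobase of exon (log axis), as the mean and SD of 3 libraries in each of the 4 groups. Cdh5 is the highest gene in every group, while Thbd moves from the seventh place in wild-type muscle to the second in wild-type testis.

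The tissue comparison gave a median difference of 3.53 over the 10 genes, against -0.475 over all 19994 genes tested. Vwf was the lowest at 1.36, Thbd followed at 2.23, and the other 8 lay between 3.28 and 4.04. A difference of at least 8-fold that passed the test was found for 8 of the 10 genes and for 10.6% of all genes. The scale between these 2 tissues rests on size factors over all 12 libraries. With TMM factors the median of all genes was -0.299 and that of the 10 genes 3.69, so both moved up together. Muscle fibre genes were found in testis libraries in unequal amounts, at a median of 0.00731% to 0.637% of their wild-type muscle level. The 10 genes stood in the same libraries at a median of 6.68% to 9.29% of theirs. The part of muscle RNA in their testis values was not tested.

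Mice A, B, C, D and F gave both tissues, which allowed the ratio to be taken within a mouse. Thbd in testis, as a share of Thbd in muscle, was 18.3% in mouse A, 21.8% in B and 23.9% in C, all wild type, and 13.0% in D and 7.75% in F. Testis Vwf was 34.7%, 38.6% and 43.8% of muscle Vwf in the wild-type mice and 38.0% and 39.1% in D and F, inside that range. The ratio in both D and F lay below all 3 wild-type mice for 5 of the 10 genes (Kdr, Flt1, Tie1, Thbd and Emcn), and for 7.02% of 14677 genes. Emcn passed the testis filter only with its wild-type libraries, where it was high, so its place among them does not count as a finding. Tie1 was among the 5 by a small margin, at 6.43% in D against 6.45% in A. These libraries are also those of the genotype comparisons, and with 3 mice against 2 the ratios are given as values only.

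Between genotypes in muscle, 7 of the 10 genes were higher in the mutant group and 3 lower, where 44.5% of all genes were higher. The median difference was 0.12, against -0.04 over all genes tested, and the range ran from Vwf at -0.28 to Emcn at 0.38. None of the 10 had groups that did not overlap, an arrangement found for 14% of all genes. Left alone as the mutant library, D, which lacked the added islet RNA of F and G, gave a median of 0.06. In that comparison Kdr was at 0.36, Thbd at 0.05, Vwf at -0.04 and Eng at -0.14. Red blood cell markers summed to 2732 to 2871 in wild-type muscle and 3629 to 6006 in mutant muscle, without overlap, and fibroblast markers to 20684 to 22818 and 23521 to 29551, also without overlap, with 6 of 6 higher and a median of 0.27. All 6 fibroblast markers were detected in every group. The part of either list in these values was not tested.

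In testis, Emcn is left out of the counts over genes, since it passed the filter only with its wild-type libraries, where it was high. Of the other 9 genes, 1 was higher in the libraries labelled mutant and 8 were lower, where 40.4% of all genes were lower. Their median difference was -0.25, and -0.26 with Emcn, against 0.03 over all genes. Kdr and Thbd, 2 of the 9, had all libraries labelled mutant below all wild-type libraries, as had 3.67% of all genes. Islet markers moved in the same direction, since testis A and B of the wild type held more of them, and muscle fibre genes in the opposite one, since A and B held less. Without A and B the median difference over all 10 genes, Emcn included, was -0.13. Pecam1, Cdh5 and Tek were then above 0, and Thbd, at -0.78, was the lowest of the 10. Markers of 3 further cell types separated the testis groups in their sums. Fibroblast markers were lower, at 945 to 965 in wild type and 774 to 940 in the libraries labelled mutant (5 of 6 lower, median -0.20). Spermatid markers were higher, at 148220 to 162690 and 167160 to 176840 (6 of 6 higher, median 0.14), and so were red blood cell markers, at 251 to 297 and 308 to 351 (4 of 4 tested higher, median 0.21). The part of these lists and of islet RNA in the values was not tested.

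**Figure D3:**
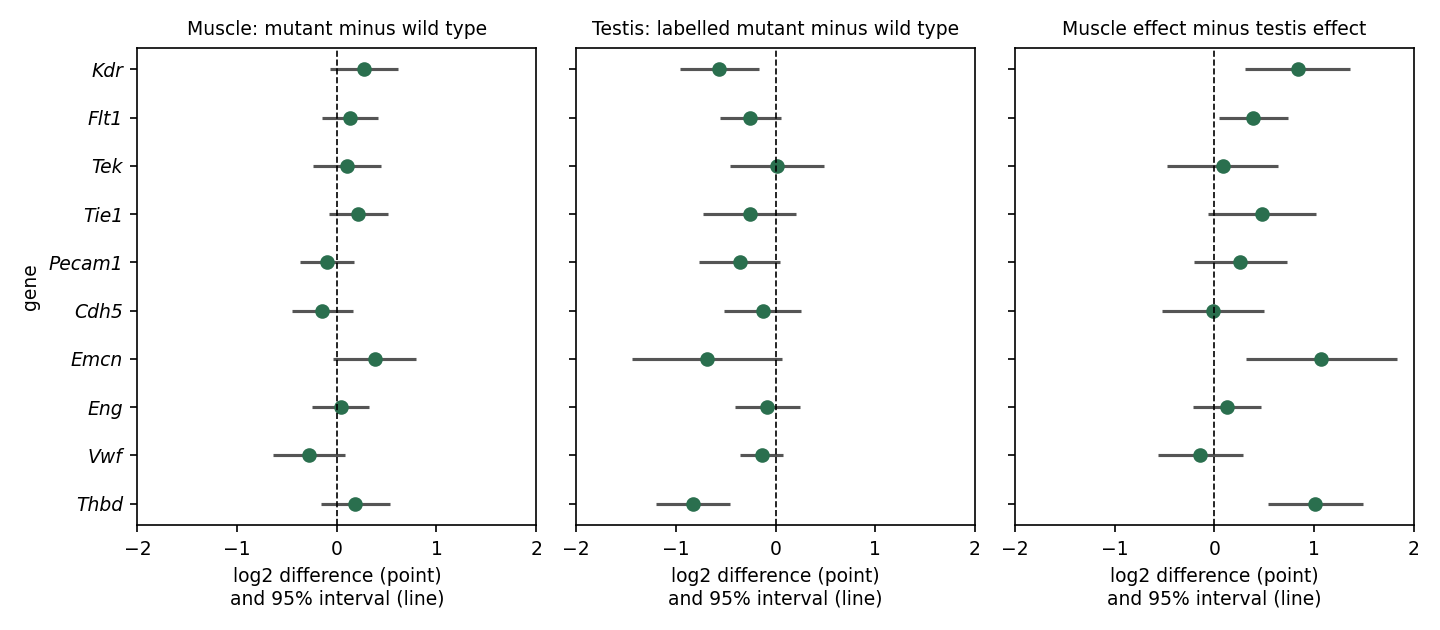
Log2 difference (point) with its 95% interval (line) for each gene, for the mutant against wild-type muscle, the labelled mutant against wild-type testis, and the muscle difference minus the testis difference. Every muscle interval crosses 0, and in testis those of Kdr and Thbd do not, before adjustment over all genes.

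Whether the genotype difference itself differed between tissues was tested over the 12 libraries, which are the same ones as in the comparisons above. Of the 10 genes 0 passed with limma, where 0.0136% of 14677 genes did, and 0 passed with edgeR and 1, Thbd, with DESeq2. Leaving out Emcn again, an unadjusted p under 0.05 was found for 3 of 9 (Kdr, Flt1 and Thbd) and for 8.69% of all genes. The muscle difference was above the testis difference for 7 of the 9, and for 39.2% of all genes. The muscle difference minus the testis difference was 1.01 for Thbd (SE 0.22, adjusted p = 0.393), 1.07 for Emcn (SE 0.35, adjusted p = 0.562) and 0.84 for Kdr (SE 0.24, adjusted p = 0.562). DESeq2 gave 1.04 for Thbd with an adjusted p of 0.0241. Without mutant muscle library D, limma gave 1.08 with an adjusted p of 0.0158, in a fit that called 951 genes. Over all 24 alternatives the adjusted p of Thbd ran from 0.0158 to 1. The remaining genes lay between -0.14 (Vwf) and 0.48 (Tie1).

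Single libraries were also compared over the 10 genes. Wild-type muscle C was the lowest of its group for all 10, with a median of -0.15 on the log2 scale against the wild-type mean. The share of all genes that were lowest in C was not counted, so this is not read as a trait of the 10 genes. The same library had the lowest sum of adipocyte markers, 4003 against 16917 to 54337 in the other muscle libraries. It also had the highest sum of skeletal muscle fibre markers, 2197700 against 1138500 to 1944400. The part of either list was not tested. Mutant muscle G, which had the highest adipocyte sum, was spread most widely, from Vwf at -0.60 to Emcn at 0.72. In testis, the medians over the 10 genes, Emcn included, were -0.14 in labelled mutant D, -0.37 in E and -0.32 in F. These are the same libraries as in the genotype comparison above. Wild-type testis C, at -0.19, was lower than labelled mutant D, so the 2 groups overlapped in this median.

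**Figure D4:**
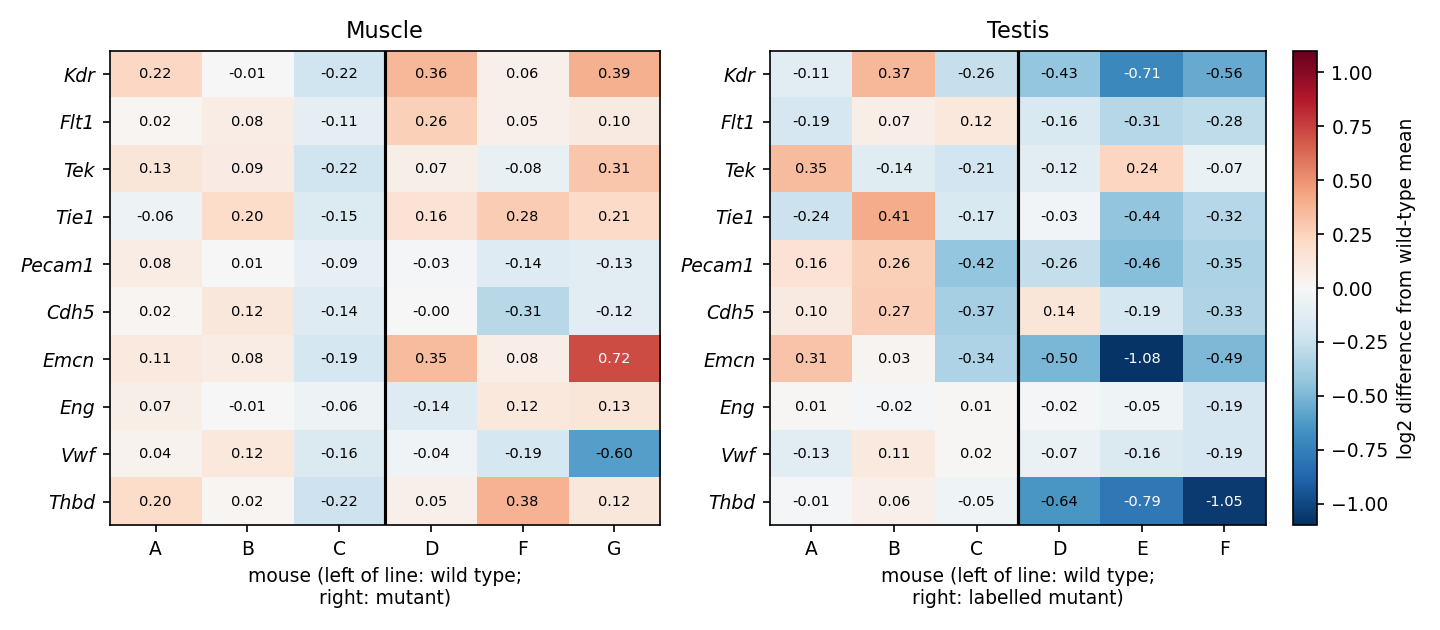
Log2 difference of each gene in each library from the wild-type mean of its tissue, as colour and printed value, with wild type left of the line. Thbd is between -0.64 and -1.05 in all 3 testis libraries labelled mutant, and Emcn in mutant muscle G, at 0.72, is the highest value.

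The neighbours of these genes in their pathways were counted from lists. For scale, 37.3% of all genes tested passed as higher in wild-type muscle. The share that passed as lower is not given here. The 15 other pan-endothelial genes passed as higher in wild-type muscle in 15 of 15 cases, with a median of 3.79, among them Tspan7 (4.57), Cd93 (4.00), Ptprb (3.79) and Cd34 (2.95). The smallest difference on that list was that of Nos3, the endothelial nitric oxide synthase, at 0.80. Between genotypes in muscle 0 of the 15 passed and 12 were higher (median 0.10), where 44.5% of all genes were higher. In testis 0 of 14 tested passed and 13 were lower (median -0.18), where 40.4% of all genes were lower. These are the same testis libraries as above, so this is not separate support. The list summed to 1133 and 1181 in wild-type A and B, which held more islet RNA. In wild-type C it summed to 979, below labelled mutant D at 1067. In testis Nos3 had 263.9, 227.4 and 190.4 normalised counts in wild type and 192.6, 164.9 and 166.1 in the libraries labelled mutant. Wild-type C lay below labelled mutant D, and the difference was -0.37 with an adjusted p of 0.696.

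Of the VEGF ligands and other VEGF receptors, 6 of 8 passed as higher in wild-type muscle and 0 as lower. Vegfa, the ligand of Kdr and Flt1, differed by 5.42, Vegfb, a ligand of Flt1, by 4.70, and the co-receptor Nrp1 by 4.27. In mutant muscle Vegfa stood at 4627, 4179 and 4423 against 3697, 3905 and 3863 in wild type, a difference of 0.205 (adjusted p = 0.584). Vegfc, a ligand of the lymphatic receptor Flt4, stood at 67.3, 67.2 and 80.8 against 45.5, 47.6 and 50.1. Its difference was 0.57 (adjusted p = 0.519). Neither gene overlapped between the muscle groups, an arrangement found for 14% of all genes. These genes had the smallest p of the list in this comparison, so their separation does not count as a finding. Of the 8 genes on this list, 4 were higher in mutant muscle and 4 lower. Among angiopoietins and the Tie phosphatase, 3 of 3 tested were higher in muscle, namely Angpt1, the activating ligand of Tek (5.59, from 259 to 293 in muscle and 2.50 to 10.9 in testis), Angpt2 (1.15) and Ptprb. Of the endoglin pathway 7 of 10 tested were higher in muscle and 2 lower, with Id3, a BMP target, at 3.94, and the type I receptor Acvrl1 at 2.76.

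Haemostasis partners were divided, with 5 of 9 tested higher in muscle and 1 lower, where 37.3% of all genes passed as higher. Procr, the endothelial protein C receptor, was higher in muscle by 2.89 and F2r, a thrombin receptor, by 2.20. Proc, protein C itself, was the 1 that was lower in muscle, with 1.14, 1.08 and 1.28 normalised counts there and 159.7, 130.8 and 135.3 in wild-type testis, a difference of -6.04 (adjusted p = 1.15e-07). Of junction partners 7 of 10 were higher in muscle, among them Esam (3.99), and 3 were lower, among them Ocln (-4.11), whose protein occludin also lines the tight junctions of epithelia. Endothelial transcription factors were higher in 9 of 12 cases and lower in 2, with a median of 2.06. The 4 named by the rule were Mef2c (6.53) and the ETS factors Ets1 (3.46), Erg (3.58) and Fli1 (3.66). The part of these factors in the values of the 10 genes was not tested.

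By vessel type, capillary genes passed as higher in muscle in 7 of 8 cases (median 4.54) and as lower in 1. Arterial genes did so in 5 of 7 and 0, and venous genes in 4 of 6 and 1. For lymphatic genes it was 3 of 5 and 1. Over all genes 37.3% passed as higher. Gpihbp1, which anchors lipoprotein lipase on capillaries, differed by 5.51. Several genes of these lists are also used by other cells, such as Cd36 and Fabp4 of adipocytes. The venous list holds Vwf itself, and Vcam1, also on it, was lower in muscle (-2.11). Pericyte and smooth muscle markers were higher in 9 of 9 cases (median 3.95). In muscle, in testis and in the difference between tissues, 0 genes of these lists passed the genotype test with limma, and the medians of the 4 vessel lists lay between -0.07 and 0.22 in muscle and between -0.29 and 0.05 in testis.

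The genes whose course over the 6 libraries of a tissue was most like the mean course of the 10 were found by the root mean square difference of centred log2 values. The 10 genes did not all follow this course themselves, although each is part of the mean it is ranked against, which draws its rank nearer. In muscle they ranked from the nearest 0.392% of genes (Flt1) to 58.7% (Vwf). In testis they ranked from 1.63% (Pecam1) to 77.5% (Tek), with Thbd at 67.6% and Emcn too low to rank, though part of the mean. In muscle these were Scpep1 (0.035), Cflar (0.043), Zmym3 (0.044), Nid1 (0.045) and Prrc2c (0.045), with 1 predicted gene ahead of them, among 12241 genes. A flat course would have scored 0.092. In testis they were Ehd4 (0.058), Slc3a1 (0.059), Tnip1 (0.068), Fbxo22 (0.073) and Ccnd2 (0.074), among 14081 genes, and a flat course would have scored 0.197. Ehd4 had 151.8, 149.1 and 126.1 normalised counts in wild-type testis and 119, 115.2 and 110.1 in the libraries labelled mutant, and Scpep1 in muscle had 346, 365 and 307 in wild type and 350.1, 334 and 363 in mutants.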

How the data were processed

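PolyA RNA from about 20 mg of frozen, powdered tissue per sample was sequenced from both ends (150 bases each) after samples had reached an RNA quality number above 7.2, per the labels' protocols. Replicates are labelled as biological, and the labels do not say whether the mice were littermates. The build GRCm38.p4 and the tools HISAT2 2.1.0, HTSeq 0.11.2, DESeq2 1.46.0, fastp 0.23.4 and Picard 1.119 are listed, with no role, in the submitters' processing notes, and neither the counting of strand nor the authors' test is given in the sources used here. The authors deposited a signal value per gene, the normalised count, which is a read count divided by 1 size factor per library. The authors also deposited regularised log2 values, used as an alternative. Multiplied by 1 step per library, 100% of the normalised counts came out whole to within 0.001, and these reads gave the depth and fed edgeR and DESeq2, which called 6 and 36 genes in muscle, 3 and 10 in testis. The step of testis D could not be checked independently, being near a power of 10, and 26 of its values had been turned into dates, none of them of the genes described.

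Features with at least 10 normalised counts in at least 3 libraries were compared on log2(normalised count + 1) with limma 3.58.1 (trended eBayes, two-sided) in R 4.3.3, with edgeR 4.0.16 and DESeq2 1.42.0 as alternatives, within each tissue for genotype, within wild type for tissue, and over all 12 libraries for the difference between tissues. The scripts were tested on simulated data. Positions and exon lengths came from GENCODE M21. The 10 genes and the gene lists were chosen with earlier results of these data known. All 10 genes are named, and from each list up to 4 genes that passed or else the 2 with the smallest p. The genes most like the 10 in course were the 5 nearest among those with a mean of at least 50 normalised counts, predicted genes counted but not named.

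Columns carry mouse numbers that are not tied to the replicate numbers of the titles. Mice A, B, C, D and F occur in both tissues by their column numbers, which pairs those libraries. The correlation of their deviations from the group means over 10021 genes was -0.066, 0.00556, -0.0121, -0.0362 and -0.0564. Alternatives were other pseudocounts, filters, scalings and tests, a model of all 12 libraries, the mouse as a block, leaving out each library, and, chosen after seeing the data, leaving out muscle F and G and testis A and B, which held more islet RNA.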

Additional observations from a re-analysis of the deposited data

How the results depend on the processing

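The number of the 10 genes that passed was 0 in muscle and 0 in testis under all 18 alternatives for each, and 10 between wild-type tissues under all 19. For the difference between tissues it was 0, except 1 (Thbd) with DESeq2 and 0 to 1 when each library was left out, where mutant muscle D gave the 1. Without the libraries that held more islet RNA, the median difference was -0.125 in testis, 0.182 for the difference between tissues and 3.81 between wild-type tissues. The wild-type tissue median was 3.69 with TMM, 3.74 with edgeR and 2.66 on the deposited rlog values, and the cause was not tested.

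Some genes changed sign. In testis Tek was -0.0134 with TMM, -0.0165 with recomputed median-of-ratios factors, -0.0268 with edgeR and -0.0263 with DESeq2. Cdh5 in the difference between tissues was 0.0404 with TMM, 0.0694 with edgeR and 0.0187 with DESeq2. Without the islet-rich libraries, Eng in muscle was -0.139, Pecam1 and Cdh5 in testis were 0.0629 and 0.237, and in the difference between tissues Tek was -0.159, Pecam1 -0.0885, Eng -0.0446 and Vwf 0.114. Leaving out each library in turn, Tek ranged from -0.0132 to 0.187 and Eng from -0.01 to 0.126 in muscle. In testis Tek ranged from -0.0948 to 0.19 and Cdh5 from -0.312 to 0.00577. In the difference between tissues Tek ranged from -0.0914 to 0.193, Cdh5 from -0.15 to 0.168 and Vwf from -0.26 to 0.021.

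Genes called in muscle, 6 with limma, numbered 36 with DESeq2 and 497 without mutant muscle D, none of the 10 among them. With the mouse as a replicate block, the median was 0.326 for the difference between tissues, with 0 genes passing, and 3.53 between wild-type tissues, with 10 passing, so the pairing changed no call. No paired analysis was possible within a tissue because the genotypes come from different mice and the columns carry no replicate numbers, so that alternative was not run. Emcn in testis, at 11 to 29 reads, is limited by depth.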
